A study of Homo sapiens with 8 samples.

Results

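Long noncoding RNAs (lncRNAs) are transcripts that are often, but not always, spliced and processed like mRNAs and are not known to encode a conserved protein. The 200 most abundant of them in LNCaP prostate cancer cells, outside a small set of named transcripts, changed little during exposure to asporin (ASPN). The genes were chosen by level alone. Of the 36474 genes in the count table, 9837 carried the annotation lncRNA. Their counts were divided by the library total and scaled to counts-per-million units (CPM), averaged over all libraries and ranked. The first 200 were kept after removing PCA3, PCAT1, SCHLAP1, PCGEM1, ARLNC1, DRAIC, PCAT14, MALAT1, NEAT1, PRKAG2-AS1 and SEPSECS-AS1. The rule used the mean over time points and not a contrast, so the levels below are a description and the changes over time are tested.

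LNCaP is an established androgen-sensitive line from a human prostate carcinoma metastasis, and ASPN is a matrix protein that fibroblasts of the tumor stroma secrete. All cells had been kept without serum and calcium before treatment and are labelled as treated with ASPN, which was given at 100 ng/mL. Poly(A) RNA sequencing covered 2 libraries at 0 h, 3 at 12 h and 3 at 24 h, with 73406825 to 96962135 counts each. Untreated cells of the later times are not analysed here, and a response to ASPN and the effect of time in the medium therefore cannot be told apart. All libraries come from 1 cell line, and in bulk RNA fewer expressing cells and less RNA per cell cannot be told apart either. The prostate epithelial markers KLK3, KLK2, TMPRSS2, FOLH1 and HOXB13 were present in every library. KLK3 had a mean of 965 CPM at 0 h and 1194 CPM at 24 h, and HOXB13 of 414 CPM at 0 h and 479 CPM at 24 h, and both rose by the test described below. Fibroblast and immune markers summed to 21.3 to 24.0 CPM over the libraries, mostly from COL1A1.

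These lncRNAs act in several ways. Some are mainly carriers: small nucleolar RNA (snoRNA) host genes hold snoRNAs in their introns, release them on splicing, and leave a spliced RNA that is often removed by nonsense-mediated decay. Others bind proteins or microRNAs in the cytoplasm, and many are transcribed away from the promoter of a protein-coding gene, so that both genes share an upstream region. By name, the 200 comprised 57 antisense transcripts, 53 known by a clone name, 23 with a LINC number, 21 divergent transcripts, 19 snoRNA hosts, 5 microRNA hosts, 1 intronic transcript and 21 others.

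Together the 200 took 0.768% to 0.813% of all counts in a library, of the 1.34% to 1.39% that fell on lncRNAs. Levels ran from 10.8 to 682 CPM with a median of 18.8 CPM, and the first 10 held 36.7% of the counts of the 200. SNHG29 led with a mean of 682 CPM, and 5 of the first 10 were snoRNA hosts (SNHG29, SNHG14, DANCR, GAS5 and SNHG3). NORAD, which binds Pumilio proteins, stood at rank 2. COLCA1, a transcript of a colorectal cancer risk locus, stood at rank 4, and OIP5-AS1, the human counterpart of cyrano, at rank 8, followed by LINC00665 and FGD5-AS1. The order depended on length, since a long transcript gathers more fragments. Per kilobase of exon, NORAD stood at 106 CPM, SNHG29 at 76.3 CPM and GAS5 at 42.4 CPM, whereas SNHG14, whose annotated exons span 122609 bases, stood at 2.68 CPM and OIP5-AS1 at 7.07 CPM. The highest value per kilobase was 125 CPM for RP1-276N6.2, a gene of 467 exon bases. At the limit of the ranking, PCCA-DT (10.9 CPM, rank 199) and CTB-89H12.4 (10.78 CPM, rank 200) were inside, and STX18-AS1 (10.76 CPM) and DLEU1 (10.75 CPM) were outside.

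**Figure D1:**
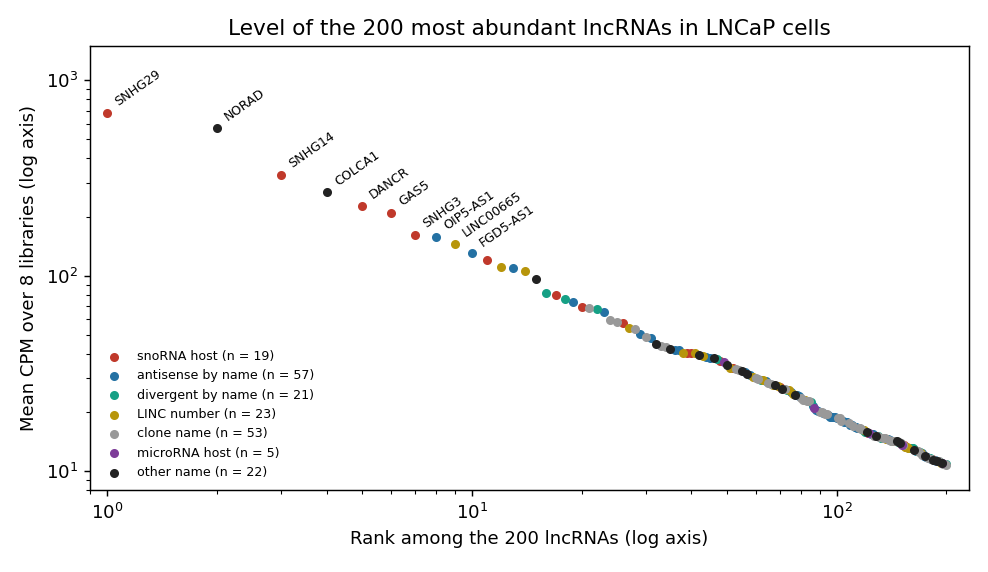
Mean level over the 8 libraries (CPM, log axis) against rank (log axis) for the 200 lncRNAs, 1 point per gene, colored by the kind of name, with 1 intronic transcript drawn among the 22 other names. The 10 labelled genes lie above 100 CPM, and levels then decline smoothly to 10.8 CPM with no gap at the limit.

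Compared with time 0, most of the 200 did not pass the test, and the changes that passed were small and mostly downward. Below, a gene passed, and rose or fell, when its p in edgeR's quasi-likelihood test, adjusted over 21071 genes by the method of Benjamini and Hochberg, was no higher than 0.05. It was called when the fold change also reached 1.5. At 24 h, 51 of the 200 passed (25.5%), of which 13 rose and 38 fell. Among all genes tested 16.3% passed in this comparison, 7.82% higher and 8.49% lower. Among the 9357 genes at least as abundant as the lowest of the 200, called the floor set below, 28.1% passed, a share near that of the 200. Of the floor set 13.3% rose and 14.8% fell. The floor set has no upper limit and includes the 200, so it is not matched to them in level. Its median SE at 24 h was 0.0577, against 0.0733 for the 200. Called at 24 h was 1 of the 200, NBR2, beside 2.45% of all genes and 1.02% of the floor set. At 12 h, 38 of the 200 passed (19%), with 8 higher and 30 lower. Of all genes 11.6% passed (4.85% higher and 6.75% lower), and of the floor set 21.6% (8.72% higher and 12.9% lower). None of the 200 was called at 12 h, beside 1.05% of all genes and 0.342% of the floor set. At an unadjusted p under 0.05 there were 66 members, no change reached 1.5-fold, and DESeq2 called 0 as well.

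Between 24 h and 12 h, 2.72% of all genes passed (1.12% higher and 1.61% lower), and 5.06% of the floor set. Of the 200, 7 passed (3.5%), 5 higher and 2 lower. These were SNHG29, COLCA1, SNHG3, SNHG32 and RP5-1061H20.4, which rose, and DNAJC3-DT and OLMALINC, which fell. None was called, beside 0.18% of all genes and 0 of the floor set. There were 30 members at an unadjusted p under 0.05 and 0 called by DESeq2. The median log2 change of the 200 was -0.042 at 12 h, -0.045 at 24 h and 0.017 between 24 h and 12 h. The medians over all genes tested were -0.00069, -0.0031 and 0.0035, and over the floor set -0.0112, -0.00225 and 0.0123. The median absolute log2 change of the 200 was 0.0952 at 12 h and 0.111 at 24 h, near the 0.0937 and 0.101 of the floor set. Both comparisons with 0 h use the same pair of time-0 libraries. Passed at both times were 32 members, 25 lower and 7 higher. A further 6 passed at 12 h alone and 19 at 24 h alone, which does not show that the times differed. The libraries of the compared times did not overlap for 114 members at 24 h (57%), beside 43.2% of all genes and 57.5% of the floor set. At 12 h this held for 89 members (44.5%), beside 36.9% and 48%, and between 24 h and 12 h for 42 members (21%), beside 19.6% and 26.8%.

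Library 0 h replicate 1 carried much of the count. Without it, and with the remaining time-0 library assumed to vary like the other groups, 11 members passed at 12 h and 26 at 24 h, and NBR2 was no longer called at a log2 change of -0.58. Without 24 h replicate 1, 34 passed at 24 h, 23 of them lower. The 7 between 24 h and 12 h became 1 without 24 h replicate 1 or 24 h replicate 2, 2 without 24 h replicate 3 or 12 h replicate 3, and 4 without 12 h replicate 1. Over 14 other fits, which changed the normalization, the filter, the tool or the libraries, 22 of the 51 at 24 h passed in every fit (16 lower and 6 higher), as did 8 of the 38 at 12 h (all lower) and none of the 7. Below, a member of these 22 or 8 is called stable.

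**Figure D2:**
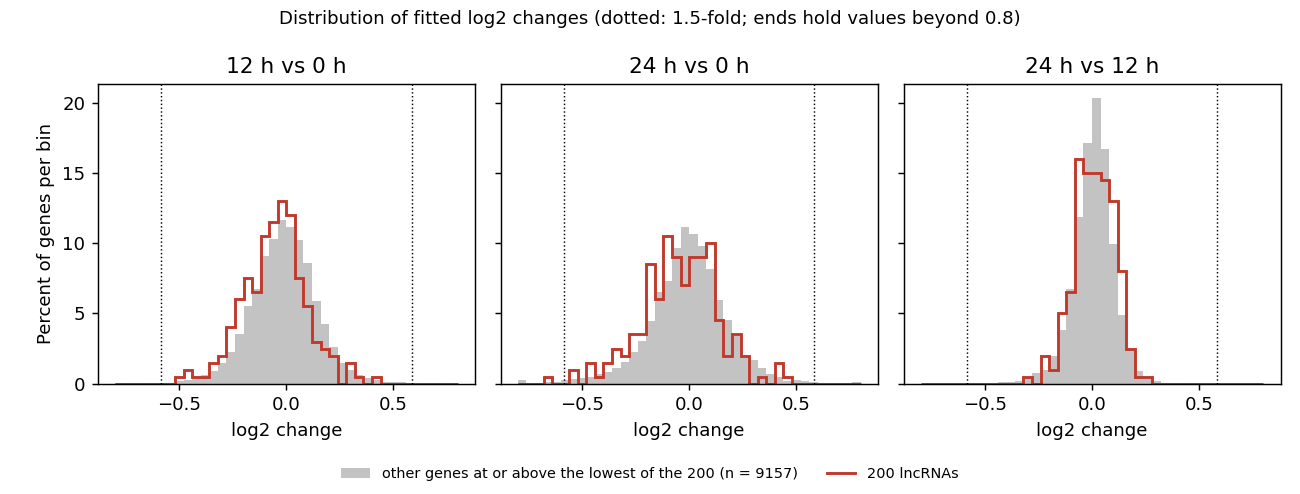
Histograms of the fitted log2 change in each comparison, as percent of genes per bin, for the 200 lncRNAs (red line) and for the 9157 other genes at least as abundant as the lowest of them (gray). In both comparisons with 0 h the red line lies slightly to the left of the gray bars, with medians of -0.042 at 12 h and -0.045 at 24 h, and only NBR2 at 24 h lies beyond the dotted 1.5-fold lines.

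NBR2 showed the largest decrease at either time. This lncRNA, known to bind AMP-activated protein kinase under energy stress, lies on chromosome 17 (GRCh38, chr17:43125551-43153671). It stood at 44.8 and 40.8 CPM at 0 h, at 30.5, 31.0 and 30.4 CPM at 12 h, and at 26.3, 27.3 and 28.6 CPM at 24 h. Each later library lay below both time-0 libraries, and each 24 h library lay below each 12 h library. The log2 fold change was -0.48 ± 0.06 (SE) at 12 h (edgeR adjusted p = 1.4e-06) and -0.64 ± 0.06 at 24 h (adjusted p = 1.5e-09), a level 1.56-fold lower. Between 24 h and 12 h it was -0.16 ± 0.05 (adjusted p = 0.12), which did not pass. It was stable at both times. NBR2 is among the 132 members that share at least 1 exon base with another annotated gene, and overlapping genes can share reads.

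The next largest decreases are described for members chosen after their values were seen. RP11-1275H24.1, listed as LINC02983 in GENCODE 44, stood at 23.2 and 23.7 CPM at 0 h and fell to 16.3, 17.3 and 17.0 CPM at 12 h and 15.9, 15.8 and 16.1 CPM at 24 h. Its log2 fold change was -0.56 ± 0.07 at 24 h (edgeR adjusted p = 2.7e-07), and 32.8% of its exon bases overlap genes on the other strand, whose reads cannot be told apart from its own without strand information. LINC01133, described in several carcinomas as a regulator of migration, stood at 37.5 and 33.8 CPM at 0 h, at 27.3, 25.9 and 24.8 CPM at 12 h, and at 22.6, 25.7 and 24.8 CPM at 24 h. It shares no exon base with another gene. Its log2 fold change was -0.46 ± 0.07 at 12 h and -0.55 ± 0.07 at 24 h (adjusted p = 2.8e-07). Both genes dropped by 12 h, and neither passed between 12 h and 24 h (adjusted p = 0.63 and 0.55).

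Promoter windows from RefSeq (GRCh38.p14, 250 bases before to 50 after the start) were found for 139 of the 200, and are shown for both of these genes because they hold the same short motif. The letters TGATGNAA, searched on both strands, are the core of the composite site that ATF4 and C/EBP proteins bind. They were present in 3.62% of 35116 promoters and in 4 of the 139 (2.88%), among them 2 of the 26 matched members that fell at 24 h and 0 of the 10 that rose. Capitals mark the match, at position 2 from the start in LINC01133 (chr1:159960974-159961273, plus strand) and at position -156 in RP11-1275H24.1 (chr7:5428878-5429177, minus strand). The RefSeq start of LINC01133 lies inside the gene as the count table spans it.
LINC01133: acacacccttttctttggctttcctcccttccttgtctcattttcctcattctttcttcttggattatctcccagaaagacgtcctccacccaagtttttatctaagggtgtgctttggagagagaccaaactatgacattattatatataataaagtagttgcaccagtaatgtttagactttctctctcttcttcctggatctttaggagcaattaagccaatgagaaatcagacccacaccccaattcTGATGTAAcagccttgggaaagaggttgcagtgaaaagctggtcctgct
RP11-1275H24.1: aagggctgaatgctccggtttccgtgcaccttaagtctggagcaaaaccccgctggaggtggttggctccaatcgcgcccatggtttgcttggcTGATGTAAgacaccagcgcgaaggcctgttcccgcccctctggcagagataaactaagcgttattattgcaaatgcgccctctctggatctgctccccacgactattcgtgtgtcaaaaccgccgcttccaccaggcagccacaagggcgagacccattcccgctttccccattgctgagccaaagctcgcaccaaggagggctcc
A match of letters is a description of the window and not evidence of binding.

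A further 3 members with large decreases at 24 h had already fallen at 12 h, and none of them passed between 24 h and 12 h. LINC00662 stood at 70.0 and 65.5 CPM at 0 h, at 49.6 to 51.2 CPM at 12 h and at 46.6 to 52.0 CPM at 24 h. It therefore reached its lower level by 12 h, with log2 fold changes of -0.43 ± 0.05 and -0.46 ± 0.05. LINC00963, first described in the progression of prostate cancer to androgen independence, stood at 127 and 123 CPM at 0 h, at 109, 96.2 and 107 CPM at 12 h, and at 94.2, 97.7 and 93.2 CPM at 24 h. Its log2 fold change was -0.26 ± 0.05 at 12 h and -0.39 ± 0.05 at 24 h (edgeR adjusted p = 8.4e-07). RP4-568C11.4 (LINC02967), a gene with a single exon block that shares no exon base, fell by 0.40 at 12 h and by 0.34 at 24 h on the log2 scale. All 3 were stable at both times.

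OLMALINC, first described in oligodendrocytes, fell late. It stood at 16.6 and 15.3 CPM at 0 h, at 16.2, 14.9 and 12.8 CPM at 12 h, and at 12.1, 11.5 and 12.3 CPM at 24 h. The 12 h libraries overlapped those at 0 h, and the 24 h libraries lay below both groups. Its log2 fold change was -0.41 ± 0.09 at 24 h against 0 h (stable) and -0.29 ± 0.08 against 12 h, the latter lost in 5 of the 14 other fits. The clone-named genes RP11-1017G21.5 and RP11-115D19.1 also fell at 24 h in every fit, by 0.44 and 0.39 on the log2 scale.

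All 3 members listed for binding RNA-binding proteins or microRNAs fell at 24 h, but only OIP5-AS1 did so in every fit. At that time 8.49% of all genes and 14.8% of the floor set fell. NORAD, a cytoplasmic RNA that holds Pumilio proteins, stood at 655 and 612 CPM at 0 h, at 517, 572 and 560 CPM at 12 h and at 554, 561 and 559 CPM at 24 h. The later libraries all lay below time 0, with log2 fold changes of -0.20 ± 0.05 and -0.18 ± 0.05 (edgeR adjusted p = 0.0023 and 0.0042), both lost without 0 h replicate 1. OIP5-AS1, which binds HuR and the microRNA miR-7, stood at 192 and 174 CPM at 0 h, at 145, 158 and 156 CPM at 12 h, and at 140, 149 and 151 CPM at 24 h. It fell by 0.26 at 12 h and by 0.32 at 24 h on the log2 scale (adjusted p = 1.5e-05 at 24 h, stable). HCG18 fell by 0.15 on the log2 scale (adjusted p = 0.047), a call lost in 10 of the 14 other fits.

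CHASERR, a noncoding neighbor that restrains the chromatin remodeler gene CHD2 downstream of it on the same strand, fell from 51.6 and 47.2 CPM at 0 h to 41.9, 40.5 and 40.9 CPM at 12 h and 37.4, 38.5 and 40.5 CPM at 24 h. The log2 fold change at 24 h was -0.35 ± 0.06 (edgeR adjusted p = 2.65e-05, stable). CHD2 itself stood at a mean of 110 CPM at 0 h and 94.5 CPM at 24 h, with a log2 fold change of -0.22 ± 0.05 (adjusted p = 0.0013). Both genes of the pair were thus lower at 24 h. They share 1.9% of the exon bases of CHASERR.

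**Figure D3:**
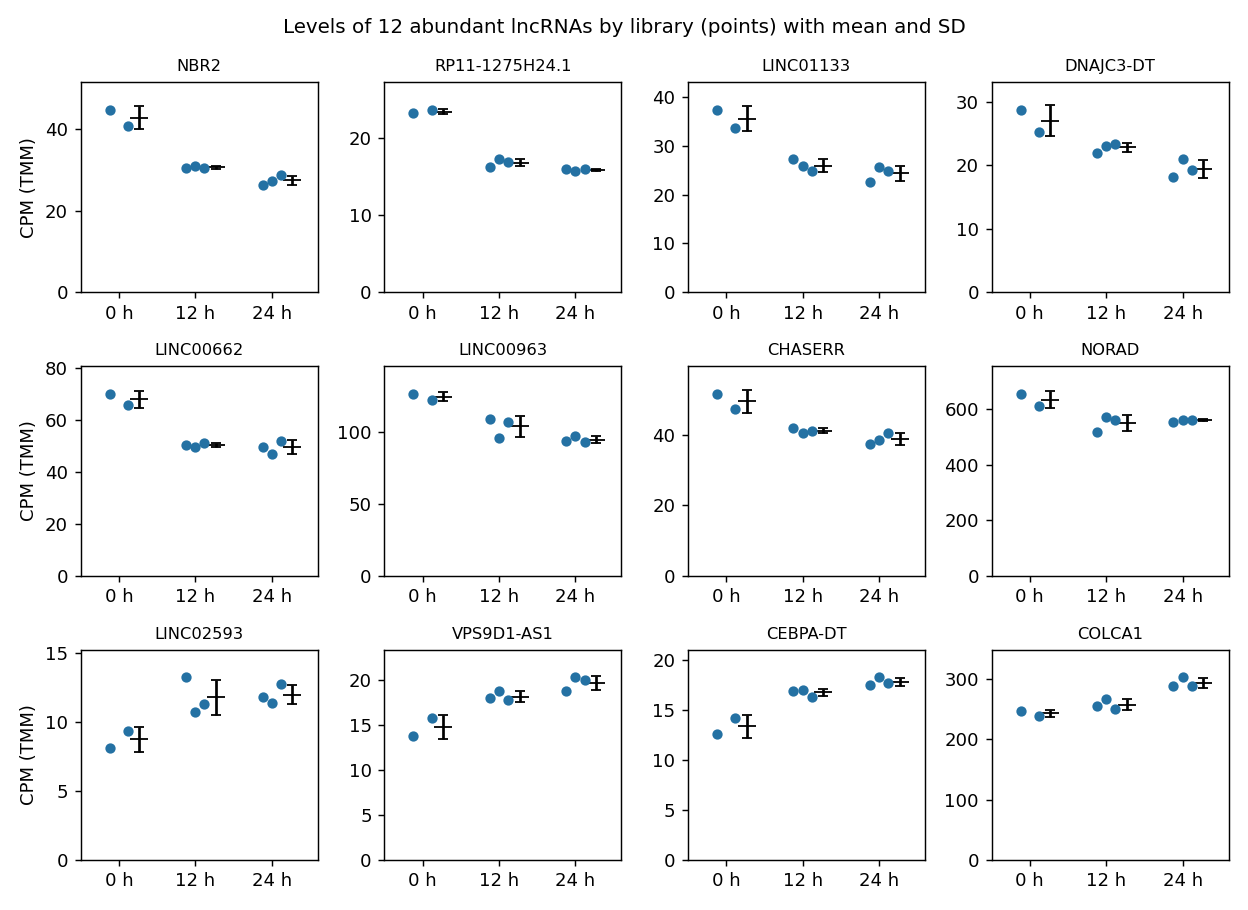
TMM-normalized CPM of 12 lncRNAs in each library (points) with the mean and SD of each time (black), each axis from 0. In the first 8 panels (NBR2 to NORAD) every 12 h and 24 h library lies below both time-0 libraries, and in the last 4 (LINC02593 to COLCA1) every 24 h library lies above both, with NBR2 going from 42.8 to 27.4 CPM and COLCA1 from 243 to 294 CPM on average.

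The 13 members that rose at 24 h had mean levels from 11.1 to 268 CPM. LINC02593 showed the largest increase at both times, from 8.10 and 9.34 CPM at 0 h to 13.2, 10.7 and 11.3 CPM at 12 h and 11.8, 11.4 and 12.7 CPM at 24 h. Its log2 fold change was 0.43 ± 0.10 at 12 h and 0.46 ± 0.10 at 24 h (edgeR adjusted p = 0.00079), neither of which passed without 0 h replicate 1. VPS9D1-AS1, also called MYU and known as a MYC-responsive transcript, rose from 13.8 and 15.8 CPM to 18.8, 20.3 and 20.01 CPM at 24 h. The log2 fold change was 0.42 ± 0.07 (adjusted p = 0.00011, stable). VPS9D1, on the other strand, overlaps 29.5% of its exon bases and had a log2 fold change of 0.20 ± 0.10 (adjusted p = 0.17). OGFRP1 rose from 9.31 and 9.68 CPM to 13.4, 11.8 and 12.8 CPM at 24 h, a log2 fold change of 0.41 ± 0.09 (adjusted p = 0.0015, stable).

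COLCA1 was the one member of the first 10 by level that rose at 24 h. It stood at 247 and 240 CPM at 0 h, at 255, 268 and 251 CPM at 12 h and at 289, 303 and 289 CPM at 24 h. The groups did not overlap, and the log2 fold change was 0.08 ± 0.04 at 12 h (edgeR adjusted p = 0.255), 0.27 ± 0.04 at 24 h (adjusted p = 3.2e-05, stable) and 0.19 ± 0.04 between 24 h and 12 h (adjusted p = 0.0056). RP5-1061H20.4 (RAB4A-AS1) went the same way, from 39.0 and 36.8 CPM at 0 h to 49.5, 49.0 and 46.2 CPM at 24 h (log2 fold change 0.35 ± 0.06, stable). RAB4A, which encodes an endosomal GTPase and lies on the other strand, stood at 56.7 CPM at 0 h and 57.6 CPM at 24 h on average (log2 fold change 0.02 ± 0.06, adjusted p = 0.86).

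Most of the 19 snoRNA hosts did not pass in any 1 comparison. At 12 h 1 rose (SNHG4), 4 fell (SNHG29, SNHG32, SNHG8 and ZFAS1) and 14 did not pass. At that time 11.6% of all genes and 21.6% of the floor set passed. At 24 h 1 rose (SNHG4) and 2 fell (SNHG8 and ZFAS1). The rise of SNHG4 was lost in 7 of the 14 other fits at 12 h and in 4 at 24 h. At 24 h the fall of SNHG8 was lost in 6 and that of ZFAS1 in 4. Between 24 h and 12 h 3 rose (SNHG29, SNHG3 and SNHG32) and none fell, where 2.72% of all genes and 5.06% of the floor set passed. The median log2 change over the 19 was -0.041 at 12 h, 0.022 at 24 h and 0.070 between 24 h and 12 h. SNHG29 stood at 740 and 712 CPM at 0 h, at 634, 645 and 631 CPM at 12 h, and at 681, 710 and 710 CPM at 24 h. It was thus lowest in the 12 h libraries, with log2 fold changes of -0.19 ± 0.04 at 12 h (edgeR adjusted p = 0.0018) and 0.14 ± 0.04 from 12 h to 24 h (adjusted p = 0.035). The first was lost without 0 h replicate 1 and the second in 4 of the 14 other fits.

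SNHG32, which hosts SNORD48 and SNORD52, was also lowest at 12 h. It stood at 88.1 and 86.3 CPM at 0 h, at 69.3, 72.9 and 76.1 CPM at 12 h and at 85.7, 82.9 and 77.4 CPM at 24 h. The log2 fold change at 12 h was -0.26 ± 0.05 (edgeR adjusted p = 0.00079, stable) and 0.17 ± 0.05 from 12 h to 24 h (adjusted p = 0.037, lost in 4 of the 14 other fits). Of its exon bases, 29.1% are shared with its snoRNAs and another gene on the same strand. ZFAS1, host of SNORD12 and its relatives, stood at 38.8 and 37.4 CPM at 0 h, at 29.6, 32.4 and 31.5 CPM at 12 h and at 33.8, 32.8 and 33.9 CPM at 24 h. It fell by 0.29 at 12 h on the log2 scale (adjusted p = 0.00099, stable) and by 0.19 at 24 h. ZFAS1 and SNHG8 overlap genes on the other strand over 36.4% and 37.6% of their exon bases. GAS5, the host known to accumulate in growth-arrested cells, stood at 205 and 207 CPM at 0 h, at 217, 208 and 193 CPM at 12 h and at 219, 212 and 213 CPM at 24 h, with a log2 fold change of 0.06 ± 0.05 at 24 h (adjusted p = 0.45).

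**Figure D4:**
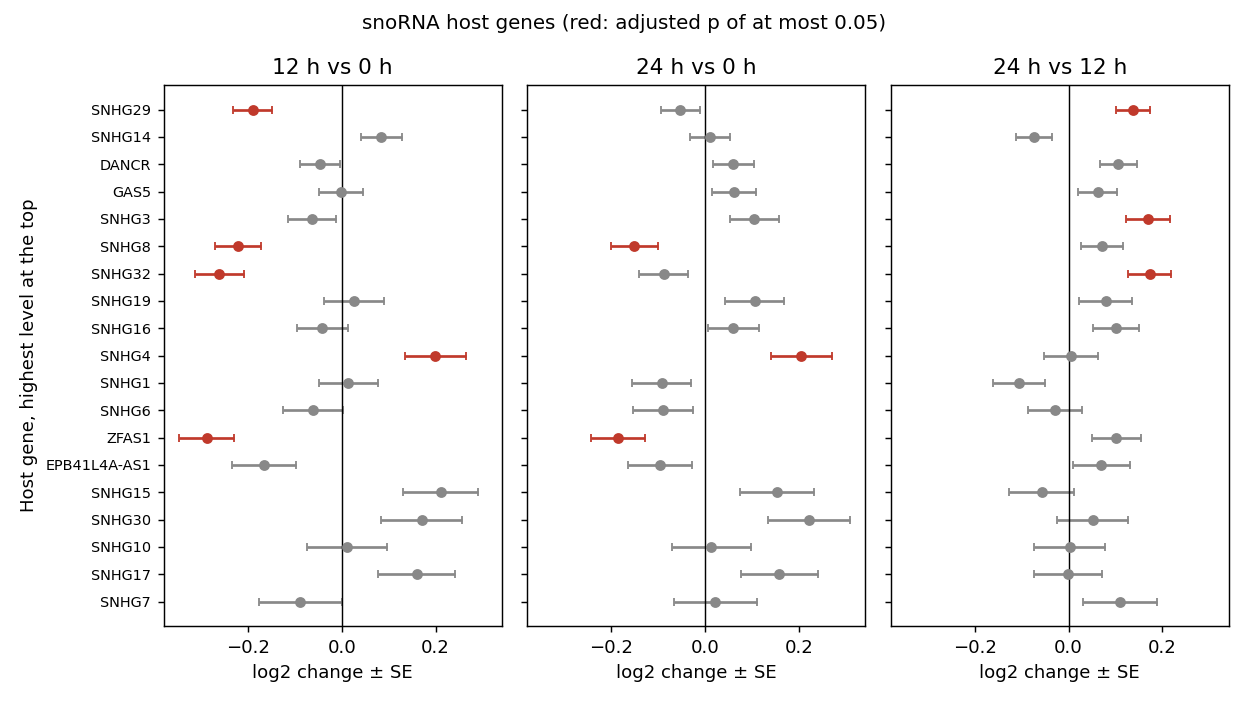
Fitted log2 change with its SE for the 19 snoRNA host genes in each comparison, ordered by level, with genes that passed in red. At 12 h SNHG29, SNHG8, SNHG32 and ZFAS1 lie to the left of 0 and SNHG4 to the right, and between 24 h and 12 h SNHG29, SNHG3 and SNHG32 lie to the right.

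Many snoRNA hosts begin with a pyrimidine tract like that of mRNAs for ribosomal proteins. A run of at least 8 C or T that reached within 5 bases of the RefSeq start was present in 5 of 17 matched hosts (29.4%). It was present in 9.02% of the other matched members and in 11.5% of all 35116 promoters. The hosts counted include SNHG29 and SNHG7, whose runs of 13 and 11 bases lie wholly before the start and begin at positions -17 and -14. The starts of the 6 hosts that passed in any comparison are shown with 25 bases on each side (GRCh38.p14, plus strand), and capitals mark the longest run of C and T that reached within 5 bases of the start. They lie at chr17:16438962-16439011 (SNHG29), chr1:28505918-28505967 (SNHG3), chr4:118278737-118278786 (SNHG8), chr6:31834891-31834940 (SNHG32), chr5:139274076-139274125 (SNHG4) and chr20:49278617-49278666 (ZFAS1).
SNHG29: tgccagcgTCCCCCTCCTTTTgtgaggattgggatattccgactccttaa
SNHG3: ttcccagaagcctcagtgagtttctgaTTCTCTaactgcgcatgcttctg
SNHG8: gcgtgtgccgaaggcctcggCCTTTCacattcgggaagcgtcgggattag
SNHG32: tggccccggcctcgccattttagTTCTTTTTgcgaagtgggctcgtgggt
SNHG4: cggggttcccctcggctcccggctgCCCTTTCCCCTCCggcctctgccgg
ZFAS1: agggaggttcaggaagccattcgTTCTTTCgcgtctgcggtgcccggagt
The runs had 13 bases in SNHG29 and SNHG4, 8 in SNHG32, 7 in ZFAS1 and 6 in SNHG3 and SNHG8. The run of 13 lies before the start in SNHG29, which fell at 12 h. In SNHG4, which rose, it begins at position 1.

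The proteins that bind snoRNAs and the factors of nonsense-mediated decay were read beside the hosts. Of 9 core snoRNA-binding proteins, 2 rose at 24 h and none fell. NOP56, a core protein of box C/D particles, rose by 0.31 ± 0.05 on the log2 scale (edgeR adjusted p = 6.3e-05) and RRP9, which binds the U3 snoRNA, by 0.18 ± 0.06 (adjusted p = 0.032). Of 15 decay factors, 2 rose and 4 fell at 24 h. At that time 7.82% of all genes rose and 8.49% fell, and 13.3% of the floor set rose and 14.8% fell. The counts of these 2 short lists were not tested against those shares. SMG1, the kinase that phosphorylates UPF1, fell by 0.27 on the log2 scale (adjusted p = 0.00100) and SMG5, which binds phosphorylated UPF1, rose by 0.17 (adjusted p = 0.0093). The part of either group in the levels of the hosts was not tested.

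Divergent transcription was common among the 200. A protein-coding gene on the other strand started within 1 kb of the start of 94 members (47%), and of 29.0% of 4180 other tested lncRNAs, a difference that was not tested. For 90 pairs the partner was tested. At 24 h, 21 of these lncRNAs and 29 of their partners passed, where 16.3% of all genes and 28.1% of the floor set passed. The fitted changes of lncRNA and partner had the same sign in 62 pairs. Both passed in 6 pairs, 4 of them in the same direction. The lncRNA alone passed in 15, the partner alone in 23 and neither in 46. Whether both passed more often than in unrelated pairs was not tested. Across pairs Pearson's r was 0.31 and Spearman's rho 0.31, as a description, since all points come from the same libraries and neighboring genes can share reads.

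DNAJC3-DT and its partner fell together. The partner DNAJC3 encodes a co-chaperone of the endoplasmic reticulum, and the starts lie 184 bases apart. DNAJC3-DT stood at 28.8 and 25.3 CPM at 0 h, at 21.98, 23.1 and 23.4 CPM at 12 h, and at 18.1, 21.0 and 19.3 CPM at 24 h. Its level was lower at each later time, with log2 fold changes of -0.25 ± 0.07 at 12 h and -0.48 ± 0.07 at 24 h (edgeR adjusted p = 8.6e-06, stable). The fall at 12 h was lost in 2 of the 14 other fits, and the fall between 12 h and 24 h in 4. DNAJC3 fell by 0.42 at 12 h and by 0.67 at 24 h on the log2 scale (adjusted p = 1.3e-08). The shared region is shown because both genes moved. Capitals mark a CCAAT box at position -143 from the DNAJC3-DT start (chr13:95676876-95677175, minus strand), letters present in 34.6% of all promoters and 42.4% of the matched members.
DNAJC3-DT: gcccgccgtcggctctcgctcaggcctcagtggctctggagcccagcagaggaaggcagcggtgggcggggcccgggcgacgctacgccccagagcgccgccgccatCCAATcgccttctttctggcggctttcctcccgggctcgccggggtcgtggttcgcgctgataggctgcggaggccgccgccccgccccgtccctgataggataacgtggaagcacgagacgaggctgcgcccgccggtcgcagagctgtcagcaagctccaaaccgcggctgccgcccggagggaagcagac
CCAAT also opens the endoplasmic reticulum stress element, in which CCACG follows at a fixed distance, and this element was on either strand in 0.0769% of all promoters and in 0 of the 139.

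CEBPA-DT rose together with CEBPA, which encodes a transcription factor of differentiation. CEBPA-DT stood at 12.6 and 14.2 CPM at 0 h, at 16.9, 17.1 and 16.3 CPM at 12 h, and at 17.5, 18.3 and 17.7 CPM at 24 h, with every later library above time 0. Its log2 fold change was 0.41 ± 0.08 at 24 h (edgeR adjusted p = 0.00013, stable), and that of CEBPA was 0.31 ± 0.08 (adjusted p = 0.0088). The starts lie 323 bases apart. The region before the CEBPA-DT start (chr19:33302571-33302870, plus strand) is shown with an E-box, CACGTG, in capitals at position -22. MYC and USF proteins bind this palindrome, which was in 7.26% of all promoters and in 14 of the 139 (10.1%), 2 of the 26 that fell and 1 of the 10 that rose.
CEBPA-DT: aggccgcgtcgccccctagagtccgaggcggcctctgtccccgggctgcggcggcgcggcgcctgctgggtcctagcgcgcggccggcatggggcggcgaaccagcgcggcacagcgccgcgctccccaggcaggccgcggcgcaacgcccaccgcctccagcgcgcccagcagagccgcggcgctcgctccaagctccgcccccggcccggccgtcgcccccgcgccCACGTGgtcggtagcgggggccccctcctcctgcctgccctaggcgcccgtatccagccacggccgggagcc

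Both genes also passed in the same direction at 24 h for HCG18, which fell with TRIM39, and for NETO1-DT, which rose with its partner. In the pairs below the genes did not both pass in the same direction at that time. Differences within a pair were not tested. BAIAP2-DT rose by 0.27 ± 0.05 on the log2 scale at 24 h (edgeR adjusted p = 0.00022, stable), while BAIAP2, which encodes an adaptor of the actin cytoskeleton, fell by 0.19 (adjusted p = 0.0036). FBXL19-AS1 fell by 0.31 and FBXL19 rose by 0.19 (adjusted p = 0.0096 and 0.027). The fall of FBXL19-AS1 was lost in 3 of the 14 other fits. SNHG1 had a log2 fold change of -0.09 ± 0.06 (adjusted p = 0.38), beside -0.54 ± 0.05 for SLC3A2 (adjusted p = 2.0e-10), an amino acid transporter subunit gene that starts 51 bases away. For MNX1-AS1 and MNX1 the values were 0.05 ± 0.07 and -0.55 ± 0.08. In 15 of the 21 pairs whose lncRNA passed, the neighbor did not pass.

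**Figure D5:**
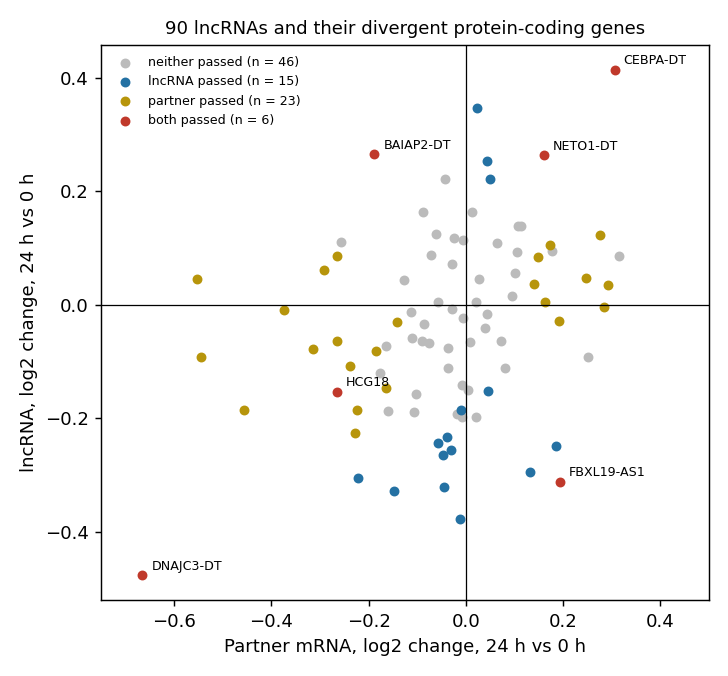
Log2 change of each of 90 lncRNAs (vertical) against that of its divergent protein-coding gene (horizontal), both at 24 h against 0 h, colored by which gene passed. Of the 6 red points, DNAJC3-DT and HCG18 lie at the lower left, CEBPA-DT and NETO1-DT at the upper right, and BAIAP2-DT and FBXL19-AS1 in the other quadrants.

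Lists of lncRNAs by known link held few of the 200. Of 3 members linked to p53, NORAD and PVT1 fell at 24 h and TP53TG1 had a log2 fold change of -0.04 ± 0.09. PVT1, the noncoding neighbor of MYC, stood at 34.3 and 33.4 CPM at 0 h and at 29.2, 30.6 and 28.4 CPM at 24 h (log2 fold change -0.20 ± 0.06, edgeR adjusted p = 0.015), and this call was lost in 4 of the 14 other fits. Of the 2 linked to proliferation, PVT1 and CRNDE, the latter had a log2 fold change of -0.03 ± 0.06. On the list of androgen- or prostate-linked lncRNAs, which did not hold LINC00963, were 2 members, and neither passed in any comparison, with log2 fold changes at 24 h of -0.03 ± 0.09 for PCAT6 and -0.07 ± 0.05 for CTBP1-DT. Of 3 linked to stress or hypoxia, NORAD fell, and MIR210HG, host of the hypoxia-induced miR-210, had a log2 fold change of 0.08 ± 0.11 and GABPB1-AS1 of 0.02 ± 0.07.

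None of the 5 listed microRNA hosts passed in any comparison. MIR99AHG, which hosts miR-99a, let-7c and miR-125b-2, stood at 35.4 and 34.3 CPM at 0 h and at 38.03, 37.5 and 37.1 CPM at 24 h (log2 fold change 0.11 ± 0.06, edgeR adjusted p = 0.23). The log2 fold changes of MIR600HG and MIR4458HG at 24 h were 0.06 ± 0.08 and -0.01 ± 0.09. FTX, an X-linked regulator that also stands on the imprinting and X-inactivation list, stood at 12.0 and 11.3 CPM at 0 h, at 9.47, 9.57 and 10.6 CPM at 12 h and at 12.4, 11.6 and 11.4 CPM at 24 h. It was lowest at 12 h, with a log2 fold change of -0.24 ± 0.09 at 12 h (adjusted p = 0.068) that missed the threshold, and 33.4% of its exon bases overlap genes on the other strand. Of the first 10 members by level, SNHG14, DANCR, GAS5, LINC00665 and FGD5-AS1 passed in no comparison. LINC00665 stood at 144 and 146 CPM at 0 h, at 146, 150 and 144 CPM at 12 h and at 142, 147 and 148 CPM at 24 h, so all groups overlapped.

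Reads shared with other genes touch many of these values. Of the 200, 132 share at least 1 exon base with another annotated gene on either strand and 23 share at least 20%. Of the 68 that share none, 17 passed at 24 h, 5 higher and 12 lower, and 13 passed at 12 h.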

How the data were processed

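RNA from LNCaP cells was sequenced as poly(A) libraries with paired reads. Per the study's methods and the submitters' processing notes, the authors trimmed reads with cutadapt, aligned them to GRCh38.p13 with STAR and GENCODE release 38, and counted reads per gene with featureCounts. The deposited values are raw counts. Strand and multi-mapping options are not given in the sources used here, so overlapping genes can share reads. The authors left out a time-0 library for quality. One of the remaining time-0 columns bears a replicate number that the labels do not give for 0 h, and it entered without a number.

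Members were ranked by CPM from raw totals. Counts entered edgeR 4.0.16 in R 4.3.3 (TMM, filterByExpr, robust quasi-likelihood F test, 1 coefficient per time). All 200 were among the 21071 genes that passed the filter. Thresholds (fold 1.5, adjusted p 0.05) follow the study. The SE of a log2 fold change comes from the change and its F statistic. CPM by library and time are TMM-normalized, whereas ranks, mean levels, levels per kilobase and marker sums use raw totals. The labels call replicates biological and say no more. The study's methods describe plating in triplicate wells and do not say whether the wells were separate experiments. The p-values therefore measure the spread between these libraries. The biological coefficient of variation was 5.59%. A count of 0 would allow 0.0309 to 0.0409 CPM (3 counts, counting error only). Replicates differed by more than sampling noise (chi-square per degree of freedom 5.32 to 15.2). Code was tested on simulated data.

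Exons, starts and overlaps come from GENCODE release 44, whose coordinates equalled the file's for 30996 of 30996 shared versioned identifiers, and promoters from RefSeq (GRCh38.p14). Members, gene lists and neighbors were chosen with earlier results of these data known. The naming rule took the first 10 members, called members, list members, the 2 decay and 2 snoRNA-binding genes of smallest p, and the genes at the limit. Other members were picked after their values were seen. A few items are not reported here. Alternatives were RLE and upper-quartile normalization, no filter, DESeq2 1.42.0, fits to the compared times alone, a replicate block, leaving out each library, and 5 other member lists.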

Additional observations from a re-analysis of the deposited data

How the results depend on the processing

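The counts of members that passed or were called, and their medians, kept their size within 1.5 times, or within the spread between libraries, under RLE and upper-quartile normalization, without the low-count filter and with DESeq2, and no change that passed was reversed in any of the 14 other fits. With the libraries of the compared times alone, 5 members were higher at 12 h in place of 8. Leaving out 1 library at a time, 11 to 40 members passed at 12 h (0 to 9 higher and 11 to 35 lower), 26 to 56 at 24 h (7 to 16 higher and 19 to 40 lower), and 1 to 7 between 24 h and 12 h (0 to 5 higher and 0 to 2 lower). The number called at 24 h was 0 to 2, with LINC01133 the second, and the median log2 change at 24 h was -0.054 to -0.030. The lowest of these counts at 12 h and 24 h came without 0 h replicate 1, and the cause was not tested. The median of -0.030 at 24 h came from the same fit, and that of -0.054 from the fit without the time-0 library that has no number.

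Deviations of same-numbered 12 h and 24 h libraries correlated weakly, at 0.10, 0.028 and 0.026. Between libraries of different numbers the correlations were -0.078 to 0.052, and 12 h replicate 2 correlated best with 24 h replicate 3 (0.052). These values do not settle whether the numbers pair the libraries. The fit with the replicate number as a block drops the time-0 library without a number and leaves 1 library at 0 h. In that block fit 43, 45 and 10 members passed at 12 h, at 24 h and between 24 h and 12 h, beside 34, 45 and 7 in the same libraries without it. Of the 45 at 24 h, 16 were higher. The block called 1 member at 12 h (LINC02593) and 4 at 24 h (NBR2, LINC02593, LINC01133 and DNAJC3-DT), with a median log2 change of -0.023 at 24 h.

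Other member lists gave other counts. Among the first 100 by rank, 25 passed at 12 h (4 higher) and 29 at 24 h (7 higher and 22 lower, median -0.022), and 1 was lower between 24 h and 12 h. Among the first 400, 15 were higher at 12 h, 87 passed at 24 h (28 higher and 59 lower, 4 called), and 12 passed between 24 h and 12 h (7 lower, median -0.0077). With 200 members ranked per kilobase of exon, 1 was called at 12 h and 4 at 24 h, the median at 24 h was -0.010, and 1 was lower between 24 h and 12 h. The cause was not tested. Among those that share no exon base, 13 passed at 12 h (3 higher and 10 lower), 17 at 24 h (5 higher and 12 lower, 0 called) and 1 between 24 h and 12 h (0 higher and 1 lower). With 2 libraries at 0 h, members whose changes are near the spread between libraries can pass or miss the threshold through 1 library.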
